A study of Mus musculus with 3 samples.

Results

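GDF15 and TGF-β were compared directly in NIH3T3, an established line of mouse embryonic fibroblasts, by setting the library of GDF15-stimulated cells against the library of TGF-β-stimulated cells. These are 2 of the 3 samples of the series, and all 15554 rows of the expression table entered the comparison. Cells were first kept in serum-free medium for 24 h. Fresh serum-free medium then held GDF15 at 100 ng/mL, TGF-β at 4 ng/mL, or no stimulus (CTRL), for a further 24 h. The unstimulated library was used to say which stimulus moved a gene. RNA of 3 samples was pooled within each treatment and sequenced as 1 library, so no value has a replicate error and no difference has a test. NIH3T3 is a single immortalized line without other cell types, and each stimulus was sequenced at 1 dose, so that in these libraries a difference between the ligands and a difference between their doses cannot be told apart.

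TGF-β is the prototype of its ligand family. It binds a complex of type II and type I receptor kinases, which phosphorylate Smad2 and Smad3 and thereby switch on matrix, cytoskeletal and feedback genes, and in fibroblasts it drives the myofibroblast state. GDF15 is a distant member of the same family, secreted by stressed and malignant cells, and its established high-affinity receptor is GFRAL, which signals with RET in hindbrain neurons.

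Expression is given as FPKM, in which fragment numbers are divided by exon length and by sequencing depth, in the order CTRL, GDF15 and TGF-β where 3 values follow each other. The difference of a gene is log2(FPKM + 1) in the GDF15 library minus the same in the TGF-β library, so that a negative difference is a higher value in TGF-β. This scale understates differences of genes with low FPKM. From the steps of single fragments among low values, the depth was estimated at 18.55, 21.65 and 17.7 for CTRL, GDF15 and TGF-β, in units of 1e6 fragments. Of the fibroblast markers, 9 of 10 had an FPKM of at least 1 in each library, and *Fap* was near 0 in all of them. None of the endothelial, adipocyte or skeletal muscle markers reached 1 in any library. Of the 6 measured macrophage markers, *Cd14* (5.66, 4.99 and 5.11) and *Cd68* (1.66, 1.14 and 1.67) exceeded 1 in every library, and the whole list summed to 7.49, 6.29 and 6.88.

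Of the 15554 rows, 3 were over 2-fold higher in GDF15 (0.0193%) and 13 were over 2-fold higher in TGF-β (0.0836%). These counts depend on the pseudocount, and were 102 and 125 with a pseudocount of 0.1, and 243 and 362 with none. Past 1.5-fold there were 62 (0.399%) and 97 (0.624%). Among the 9226 rows that averaged at least 1 FPKM over the 3 libraries, 58 were over 1.5-fold higher in GDF15 (0.629%) and 84 in TGF-β (0.91%). In this set, 60.3% of the rows had the higher value in GDF15 and 39.7% in TGF-β, the median difference was 0.04, and the central 90 percent of differences lay between -0.289 and 0.322. The local spread, a scaled median absolute deviation of the difference over the genes nearest in expression, had a median of 0.15. It describes how far genes of the same expression differed between these libraries and is not a replicate error.

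**Figure D1:**
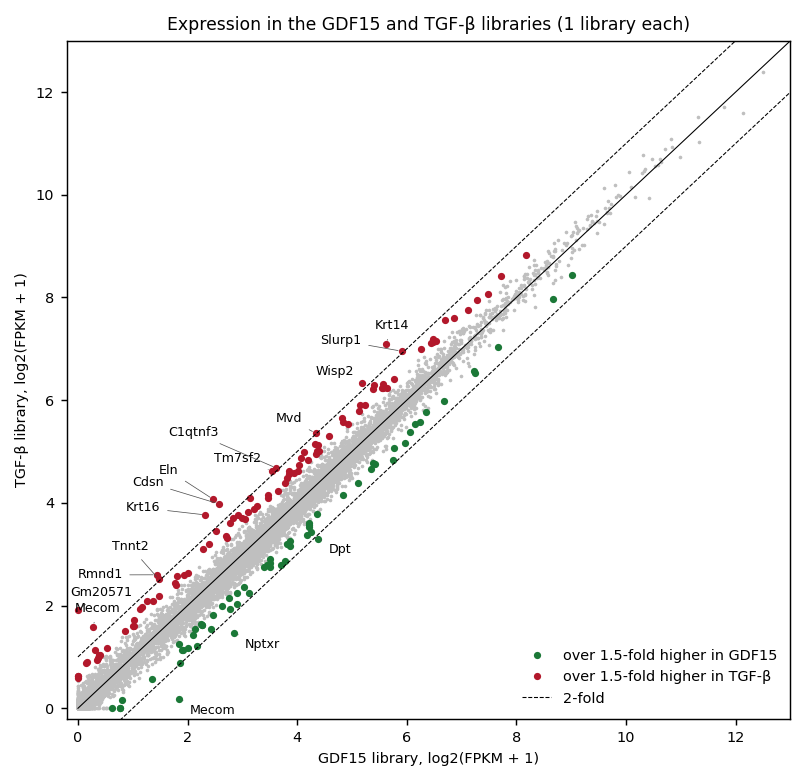
Each point is 1 of 15554 rows, with log2(FPKM + 1) in the GDF15 library on the x axis and in the TGF-β library on the y axis. Dashed lines mark 2-fold, coloured points are over 1.5-fold, and the 16 labelled rows beyond the dashed lines lie mostly on the TGF-β side, where there are 13 against 3.

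Most rows that told the stimuli apart had been moved by TGF-β. Of the 97 rows over 1.5-fold higher in TGF-β, 43 were over 1.5-fold above CTRL with TGF-β alone and 30 with both stimuli. A further 6 were below CTRL with GDF15 alone, 1 was below with both, 1 was moved in opposite directions and 16 were moved over 1.5-fold by neither. Of the 62 rows over 1.5-fold higher in GDF15, 36 were below CTRL with TGF-β alone, 11 with both and 12 with neither, whereas 3 were above CTRL with GDF15 alone. Both differences from CTRL use the same CTRL library. For scale, among the 9226 rows that averaged at least 1 FPKM, GDF15 moved 1.27% up and 1.55% down over 1.5-fold, and TGF-β moved 2.54% up and 3.06% down.

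The genes over 2-fold higher in TGF-β that encode secreted proteins were led by *Eln*, which encodes elastin, the elastic core of elastic fibres. *Eln* had FPKM of 1.79, 4.53 and 15.8, so that GDF15 lay above CTRL and TGF-β well above both. By fragments, TGF-β was 3.49-fold over GDF15, with a 95% interval of 3.09 to 3.95 (exact binomial method on estimated fragment numbers, counting error only, as for all intervals here). *Wisp2*, which encodes the matricellular growth regulator CCN5, had FPKM of 14.5, 35.5 and 80.1, a ratio of TGF-β to GDF15 of 2.26 (2.1 to 2.43). *C1qtnf3*, which encodes the C1q and TNF related protein also called cartducin, had FPKM of 0.124, 11.3 and 24.6. It was near 0 in CTRL and well above that with either stimulus, and its ratio of TGF-β to GDF15 was 2.18 (1.96 to 2.43). *Slurp1*, which encodes a secreted Ly6 family protein of keratinocytes, had FPKM of 69.3, 59 and 123. GDF15 was below CTRL and TGF-β above it. In the reference annotation *Slurp1* overlaps *Them6* on the other strand over 322 bases, and whether strand was used in counting is not given in the sources used here.

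The keratin and cornified envelope genes gave the lowest list median. Keratins build intermediate filaments of epithelia, and corneodesmosin, the product of *Cdsn*, holds cornified cells together. Of 24 listed genes, 22 were measured and 6 averaged at least 1 FPKM, and all 6 were higher in TGF-β (4 of them over 1.5-fold, against 0.91% of all rows at this expression). Their median difference was -1.07, with medians of 0.83 for GDF15 and 1.92 for TGF-β against CTRL. *Krt14* had FPKM of 24, 48.2 and 136, and TGF-β was 2.81-fold over GDF15 (2.65 to 2.98). *Krt16* had FPKM of 1.82, 4.01 and 12.6, and *Cdsn* had 2.14, 4.92 and 14.8. Both stood in the same order of libraries as *Krt14*. *Krt17* was lower, with FPKM of 0.442, 1.57 and 3.28. *Krt14*, *Krt16* and *Krt17* are close paralogs, and how reads shared by them were counted is not given in the sources used here. *Jup*, which encodes the junction protein plakoglobin, differed least, with FPKM of 16.3, 17.5 and 20.1. Most other keratinocyte markers were listed below 1, but *Krt10*, a keratin of differentiating keratinocytes outside the list above, had FPKM of 2.49, 1.96 and 1.89, lowest in TGF-β. Values near 0 were also given for *Rpl26* (9.57e-05 FPKM in CTRL) and *Ndufs5* (4.76e-05 FPKM in CTRL), which encode ribosomal and respiratory chain proteins that all cells use, so a value of 0 in these files does not show absence. *Krt5*, the partner of *Krt14* in basal keratinocytes, had FPKM of 0, 0.0231 and 0, *Epcam*, *Krt1* and *Perp* were listed at 0 in all libraries, and *Cdh1* stood at 0.685, 0.555 and 0.186. The summed FPKM of the 11 keratinocyte markers was 27.8, 51.6 and 138, nearly all of it *Krt14*.

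Of the other genes over 2-fold higher in TGF-β, *Tnnt2*, which encodes cardiac troponin T, had FPKM of 0.531, 1.78 and 4.71. Its ratio of TGF-β to GDF15 of 2.67 had a wide interval (1.8 to 4.03), with 38.5 and 83.4 estimated fragments in GDF15 and TGF-β. Once length and GC trends were subtracted, *Tnnt2* was not over 2-fold apart (-0.97). *Rmnd1*, which encodes a protein needed for mitochondrial translation, had FPKM of 4.81, 1.71 and 5.06. It was the single gene of the 13 that TGF-β left near CTRL while GDF15 was below it. *Gm20571*, the row that the reference annotation calls *Pet117*, had FPKM of 0.501, 0 and 2.77. It was listed at 0 in GDF15, so its difference of -1.92 depends on the pseudocount, and it was the one row that the stimuli moved over 1.5-fold in opposite directions. Its difference of GDF15 from CTRL, -0.59, lay at the edge of the 1.5-fold limit, with 4.58 estimated fragments in CTRL and 0 in GDF15. It lies within *Kat14* on the same strand over 4726 bases, and *Kat14* had FPKM of 12.9, 13.4 and 13.5.

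*Mecom*, which encodes the zinc finger transcription factor EVI1, occupied a row on each side of the comparison. One row had FPKM of 1.77, 2.6 and 0.129 and was over 2-fold higher in GDF15, and the other had 0.245, 0.21 and 2.01 and was over 2-fold higher in TGF-β. Summed over both rows, *Mecom* had FPKM of 2.01, 2.81 and 2.14, and the difference was 0.28. The table does not say which transcripts each row holds, so no difference of the gene is drawn from either row.

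The other 2 genes over 2-fold higher in GDF15 were both below CTRL with TGF-β. *Nptxr*, which encodes the neuronal pentraxin receptor, had FPKM of 6.04, 6.23 and 1.75, with GDF15 level with CTRL. The ratio of TGF-β to GDF15 was 0.281 (0.234 to 0.337), and *Nptxr* overlaps *Npcd* on the same strand in the reference annotation. *Dpt*, which encodes dermatopontin, a matrix protein that binds decorin, had FPKM of 27, 19.7 and 8.87, a ratio of 0.45 (0.387 to 0.523). Both stimuli left *Dpt* below CTRL, and TGF-β further.

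At the 2-fold threshold the rows just inside were *Mvd* (difference -1.02) and *Tnnt2* (-1.04), and the rows just outside were *Msmp* (0.99), *Wisp1* (-0.97), *Insl3* (0.96) and *Postn* (-0.94). *Msmp*, which encodes a small secreted microseminoprotein-like protein, had FPKM of 1.03, 2.64 and 0.836. It was one of the 3 rows over 1.5-fold higher in GDF15 that GDF15 alone had moved upward. Its values rested on 10.3, 31 and 8.03 estimated fragments, and its ratio of TGF-β to GDF15 was 0.316 (0.125 to 0.702). *Insl3*, an insulin-like hormone gene, had FPKM of 6.83, 3.51 and 1.31, lower with both stimuli and lowest with TGF-β.

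**Figure D2:**
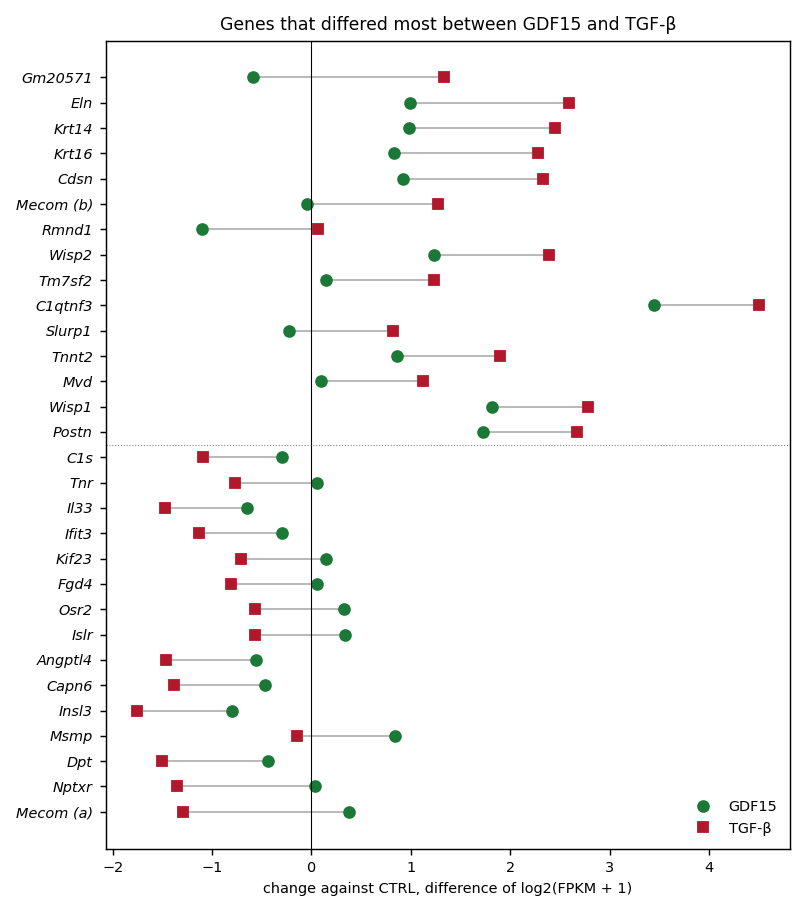
Change against CTRL, as a difference of log2(FPKM + 1), with GDF15 (green circles) and TGF-β (red squares) for the 15 genes with the largest difference in each direction among those averaging at least 1 FPKM over the stimulated libraries. Above the dotted line TGF-β lies to the right of GDF15, as for Eln (2.59 against 0.99), and below it to the left, as for Nptxr (-1.36 against 0.04); Mecom (a) and (b) are the 2 rows of that symbol.

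The sterol and fatty acid synthesis genes had more members over 1.5-fold higher in TGF-β (20) than any other of the 36 lists. Lists differ in length, and by share of members this list (64.5%) stood below the keratin and cornified genes (66.7%). Products of the sterol and fatty acid genes turn acetyl-CoA into mevalonate, squalene and cholesterol, and into fatty acids. The transcription factor SREBP2 raises the sterol enzymes when membranes of the endoplasmic reticulum run low in cholesterol. Of 31 genes that averaged at least 1 FPKM, 30 were higher in TGF-β, where 39.7% of all such rows were, and 20 were over 1.5-fold higher, where 0.91% were (24 once length and GC trends were subtracted). None was over 1.5-fold higher in GDF15, where 0.629% of rows at this expression were, so that the count of none says nothing about these genes. The median difference was -0.64 beside 0.04 for all genes. Against CTRL the median was 0.28 with GDF15 and 0.92 with TGF-β. Over 1.5-fold up were 25 genes with TGF-β and 3 with GDF15, where 2.54% and 1.27% of rows at this expression were. With GDF15, 29 lay above CTRL at all, where 44.4% of such rows did. The programme was above CTRL in both stimulated libraries and furthest in TGF-β.

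In the mevalonate part of the pathway, *Hmgcs1*, which encodes the synthase that commits acetoacetyl-CoA to it, had FPKM of 54.7, 85.9 and 138. *Mvk* and *Pmvk*, the kinases that follow, had 21.6, 22.9 and 38.5, and 18.2, 19.1 and 34.4. For these kinases GDF15 stayed near CTRL. *Mvd*, the decarboxylase that makes isopentenyl diphosphate, had FPKM of 17.9, 19.2 and 40, a ratio of TGF-β to GDF15 of 2.09 (1.89 to 2.31). In the reference annotation *Mvd* overlaps *Gm20388* on the other strand over 9822 bases. *Idi1*, the isomerase, had 30.3, 46.1 and 74, and *Fdps*, which makes farnesyl diphosphate, had 91.2, 115 and 193. In the squalene and sterol part, *Sqle*, the epoxidase, had FPKM of 99.5, 138 and 214, and *Lss*, the cyclase that makes lanosterol, had 15.9, 19.8 and 34. *Tm7sf2*, a sterol reductase, had FPKM of 9.42, 10.6 and 23.6, and its ratio of 2.23 (1.93 to 2.58) was the highest of the list. In the reference annotation *Tm7sf2* overlaps *Vps51* on the same strand over 532 bases. *Hsd17b7* had FPKM of 9.6, 15.3 and 25.6, so that *Hsd17b7*, *Hmgcs1* and *Idi1* were the genes furthest above CTRL in GDF15 as well. *Ebp*, the sterol isomerase, differed least among the enzymes of cholesterol synthesis, with 15.6, 14.3 and 18.3.

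Among the control genes, *Insig1*, which retains the SREBP complex in the endoplasmic reticulum and is itself a target of it, had FPKM of 77.8, 88.7 and 146. *Srebf2*, the gene of SREBP2, differed little, with 62.4, 72.9 and 83.2. *Srebf1* was the one exception in direction, with FPKM of 21.8, 21.2 and 19.8. Of the fatty acid genes, the desaturase *Scd2* had FPKM of 155, 211 and 339 and the elongase *Elovl6* had 4, 5.58 and 8.99, whereas *Fasn*, the fatty acid synthase, had 34.7, 38.2 and 50.5 and *Acaca*, the carboxylase before it, had 6.93, 9.16 and 10.4.

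Promoters of sterol genes that told the stimuli apart are printed with their matches to CCAAT and TCACNCCAC marked. They are from RefSeq on GRCm38.p6, from 250 bases before to 50 bases after the start, 5′ to 3′ on the strand of the gene. Capitals mark CCAAT or its complement on either strand, the core bound by NF-Y, and TCACNCCAC, a form of the sterol regulatory element bound by SREBP, and no base belongs to both motifs.
Mvd, chr8:122443373-122443672, minus strand: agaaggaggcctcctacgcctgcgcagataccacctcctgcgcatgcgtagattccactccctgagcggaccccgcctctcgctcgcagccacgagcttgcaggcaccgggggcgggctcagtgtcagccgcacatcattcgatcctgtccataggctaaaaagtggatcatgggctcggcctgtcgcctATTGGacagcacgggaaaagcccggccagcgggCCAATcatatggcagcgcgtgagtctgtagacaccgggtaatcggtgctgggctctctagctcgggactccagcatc
Tm7sf2, chr19:6067801-6068100, minus strand: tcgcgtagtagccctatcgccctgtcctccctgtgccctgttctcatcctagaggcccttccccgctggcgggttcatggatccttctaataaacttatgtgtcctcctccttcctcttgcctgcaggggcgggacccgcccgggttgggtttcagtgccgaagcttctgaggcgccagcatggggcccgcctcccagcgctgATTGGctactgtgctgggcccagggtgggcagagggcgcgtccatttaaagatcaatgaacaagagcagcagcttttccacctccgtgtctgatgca
Hmgcs1, chr13:119690101-119690400, plus strand: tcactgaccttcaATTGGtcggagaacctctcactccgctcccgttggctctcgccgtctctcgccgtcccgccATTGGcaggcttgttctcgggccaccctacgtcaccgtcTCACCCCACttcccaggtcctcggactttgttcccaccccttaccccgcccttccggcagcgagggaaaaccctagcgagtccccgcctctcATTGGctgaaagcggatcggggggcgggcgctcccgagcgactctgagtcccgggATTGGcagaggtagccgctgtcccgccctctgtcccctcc

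Of the 31 sterol and lipid genes, 22 had a promoter in the table. CCAAT was in 18 of these 22 (81.8%), in 39.5% of the 7393 promoters of genes averaging at least 1 FPKM, and in 37.9% of all 27025 promoters. *Hmgcs1* held TCACNCCAC on its own strand and CCAAT at 4 places, and it was the 1 promoter of 22 (4.55%) with TCACNCCAC, which was in 1.04% of promoters of expressed genes and 1.22% of all. A match is a description of letters and not a binding site. CCAAT was added to the motifs after the data were seen.

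The mitosis and G2 genes had the highest list median. They encode the kinases, cyclins, motors and spindle proteins that a cell makes as it approaches and passes through division. All 26 measured members were higher in GDF15, where 60.3% of rows at this expression were, and 5 were over 1.5-fold higher, where 0.629% were. The count over 1.5-fold was 2 (*Kif23* and *Hmmr*) once the trends with length and GC content were subtracted. The median difference was 0.51. Against CTRL the median was 0.05 with GDF15 and -0.51 with TGF-β. All 26 lay below CTRL with TGF-β, where 62.8% of rows at this expression did. Of them, 8 were over 1.5-fold below, where 3.06% of rows were. With GDF15, 16 lay above CTRL, where 44.4% of rows did. None was moved over 1.5-fold by GDF15, where 1.27% of rows were up and 1.55% down, so this count says nothing about them. By their medians, these genes stood near CTRL in GDF15 and below it in TGF-β. In bulk RNA, fewer cells in division and less of these transcripts per cell cannot be told apart.

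*Kif23*, which encodes a kinesin of the central spindle that is needed for cytokinesis, had FPKM of 6.83, 7.66 and 3.77. The ratio of TGF-β to GDF15 was 0.493 (0.419 to 0.579). *Hmmr*, a spindle protein and hyaluronan receptor, had FPKM of 9.25, 9.94 and 5.96. *Top2a*, the topoisomerase that disentangles sister chromatids, had 34.8, 41 and 26.4, and *Ccnb1*, the cyclin of Cdk1 at mitotic entry, had 13.2, 13.6 and 8.62. *Bub1b*, a spindle checkpoint kinase, had 9.21, 10.3 and 6.53. In all of these GDF15 was at or above CTRL. A smaller group lay below CTRL with both stimuli. *Plk1*, the polo-like kinase, had FPKM of 11, 8.64 and 5.66, *Cdc20*, an activator of the anaphase-promoting complex, had 32.8, 28.2 and 19.2, and *Birc5*, which encodes survivin, had 37.8, 28.1 and 24.8, the smallest difference of the list (0.17).

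The genes of DNA replication and of the G1/S transition differed less. Of 27 members, 22 were higher in GDF15, where 60.3% of all rows at this expression were, and the median difference was 0.12. None was over 1.5-fold apart, where 0.629% of rows were over 1.5-fold higher in GDF15 and 0.91% in TGF-β. The count of none therefore says nothing about these genes. *Pcna*, the sliding clamp of DNA polymerase, had FPKM of 65.3, 66.2 and 69.2. *Ccne2*, a cyclin of S phase entry, was higher in TGF-β, with 3.79, 3.5 and 4.34, and *Rfc4*, a clamp loader subunit, differed most, with 11.3, 8.86 and 6.92. The median of the mitosis genes was 0.51 and that of the replication genes was 0.12 within the same pair of libraries, and this difference between lists was not tested.

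Promoters of mitosis genes over 1.5-fold higher in GDF15 are printed in the same way. Capitals mark TTTGAA on either strand, the core of the cell cycle genes homology region through which late cell cycle genes are repressed and activated, and CCAAT on either strand. No base belongs to both.
Kif23, chr9:61946750-61947049, minus strand: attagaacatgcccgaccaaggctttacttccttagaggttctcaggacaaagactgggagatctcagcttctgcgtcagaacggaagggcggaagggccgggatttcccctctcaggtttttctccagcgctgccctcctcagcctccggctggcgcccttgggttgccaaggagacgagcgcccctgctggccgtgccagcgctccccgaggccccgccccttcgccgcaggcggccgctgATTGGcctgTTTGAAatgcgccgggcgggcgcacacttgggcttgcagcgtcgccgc
Hmmr, chr11:40733388-40733687, minus strand: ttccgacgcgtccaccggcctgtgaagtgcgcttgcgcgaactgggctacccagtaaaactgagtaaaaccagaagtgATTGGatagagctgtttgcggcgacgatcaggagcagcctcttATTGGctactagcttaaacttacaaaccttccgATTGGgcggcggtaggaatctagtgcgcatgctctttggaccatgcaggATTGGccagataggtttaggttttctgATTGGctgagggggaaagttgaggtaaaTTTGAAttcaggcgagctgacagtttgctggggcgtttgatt
Top2a, chr11:99024140-99024439, minus strand: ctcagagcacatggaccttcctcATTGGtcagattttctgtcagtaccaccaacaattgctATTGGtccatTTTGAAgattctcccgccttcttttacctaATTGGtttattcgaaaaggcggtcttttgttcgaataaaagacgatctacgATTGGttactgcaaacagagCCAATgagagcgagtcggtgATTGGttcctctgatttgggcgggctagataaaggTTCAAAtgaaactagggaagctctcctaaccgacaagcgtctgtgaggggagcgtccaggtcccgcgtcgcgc

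TTTGAA was in 17 of the 22 promoters of mitosis genes in the table (77.3%), in 11.6% of promoters of expressed genes and in 18.1% of all promoters. CCAAT was in 19 of 22 (86.4%), close to its share among sterol genes. *Hmmr* held TTTGAA beside 5 copies of CCAAT. Among all genes over 1.5-fold higher in GDF15, 14 of 45 promoters held TTTGAA (31.1%), and among those over 1.5-fold higher in TGF-β, 8 of 51 did (15.7%). The Smad motif CAGACA was in 13 of the 51 (25.5%), in 5 of the 45 (11.1%), in 14.7% of promoters of expressed genes and in 21% of all. The palindrome GTCTAGAC was in none of the promoters of either side. It was in 0.176% of promoters of expressed genes and 0.211% of all, so the count of none says nothing about these genes. TTTGAA was chosen after the data were seen.

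**Figure D3:**
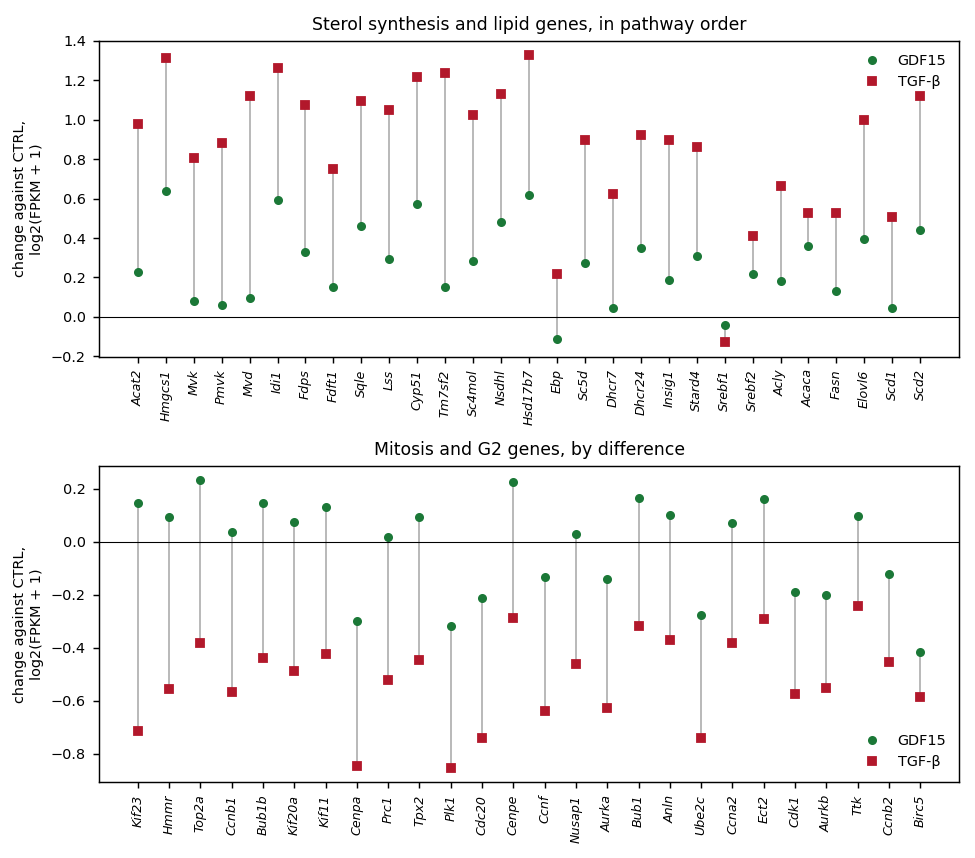
Change against CTRL, as a difference of log2(FPKM + 1), for 29 sterol and lipid genes in pathway order (upper panel) and the 26 mitosis and G2 genes by difference (lower panel), with GDF15 as green circles and TGF-β as red squares. In the upper panel TGF-β lies above GDF15 for 28 genes and below it for Srebf1, and in the lower panel TGF-β lies below GDF15 and below CTRL for all 26.

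Genes of the CCN family and of Smad feedback went both ways. The CCN family encodes matricellular growth regulators. *Ctgf* had FPKM of 9.03, 41.3 and 77.3, *Wisp1* had 1.5, 7.79 and 16.2, and *Cyr61* had 3.37, 7 and 10.7. With *Wisp2*, 4 of 5 members averaging at least 1 FPKM were higher in TGF-β and 3 over 1.5-fold higher, where 39.7% and 0.91% of all rows at this expression were, and the median difference was -0.89. *Nov* was the exception, with FPKM of 2.2, 0.89 and 0.363, below CTRL with both stimuli. Among the 16 genes of Smad feedback, 1 was over 1.5-fold higher in TGF-β (6.25%), where 0.91% of all rows at this expression were. It was *Pmepa1*, an inhibitor of receptor-activated Smads, with 1.53, 5.83 and 11.2. *Skil*, which encodes the corepressor SnoN, had 2.45, 6.07 and 8.86, and *Smad7*, the inhibitory Smad, had 2.58, 3.28 and 4.36. Of the 16, 9 were higher in TGF-β (39.7% of all rows at this expression), and the median was -0.05. *Smurf2*, a ubiquitin ligase, was highest in GDF15, with 12.7, 16.8 and 14.1. The Notch target *Hes1* had FPKM of 2.57, 6.61 and 12.6, and *Jag1*, a Notch ligand, had 10.6, 17.6 and 25.

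Matrix genes fell on both sides. Of 18 collagen chains, 13 were higher in TGF-β and 3 over 1.5-fold higher, where 39.7% and 0.91% of all rows at this expression were, and the median difference was -0.13. *Col11a1*, a chain of fibrils in cartilage, had FPKM of 3.72, 16.5 and 31, *Col12a1*, which associates with fibril surfaces, had 1.99, 4.22 and 8.2, and *Col8a1*, a short chain network collagen, had 9.6, 33.8 and 54. The abundant fibril chains were nearer each other. *Col1a1* had FPKM of 1103, 1669 and 1902, so that both stimuli lay well above CTRL. *Col3a1* went the other way, with 3738, 4484 and 3092, and TGF-β was below CTRL. *Lox*, the oxidase that crosslinks collagen and elastin, had 78, 289 and 452, while the crosslinking list had a median of -0.04. Of 15 elastic fibre genes, 11 were higher in TGF-β (39.7% of all rows). *Mfap5*, a microfibril protein, had FPKM of 9.91, 14.3 and 22.9, and *Efemp1*, a fibulin, had 531, 516 and 344. *Efemp1* was just past 1.5-fold higher in GDF15 (difference 0.59) and was not past it once length and GC trends were subtracted (0.55).

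The proteoglycan and adhesive genes were divided in the same way. *Bgn*, which encodes biglycan, had FPKM of 290, 770 and 1117, and *Dcn*, which encodes the related decorin, had 419, 408 and 249. *Bgn* was over 1.5-fold above CTRL with both stimuli, and *Dcn* was over 1.5-fold below CTRL with TGF-β and within 1.5-fold of it with GDF15. *Postn*, which encodes periostin, had FPKM of 0.73, 4.73 and 10, and *Ccdc80*, a matrix protein, had 11.5, 40.9 and 73.3. On the other side were *Thbs2*, which encodes thrombospondin 2, with 141, 150 and 91, and *Sparcl1*, which encodes hevin, with 28.1, 13.6 and 7.94. Among contractile genes, *Tagln*, which encodes the actin-binding protein transgelin, had 2.2, 8.27 and 13.8, and *Acta2*, smooth muscle actin, had 20.4, 73.6 and 96.1. Of the 19 contractile genes, 14 were higher in GDF15, where 60.3% of all rows at this expression were, and the median was 0.06. *Tpm1*, a tropomyosin gene, had FPKM of 77.1, 80.6 and 78.6.

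Of 30 receptors, ligands and coreceptors of this ligand family, 13 averaged at least 1 FPKM, and 11 of these were higher in GDF15, where 60.3% of all rows at this expression were. The median difference was 0.14. None was over 1.5-fold apart, where 0.629% of rows were over 1.5-fold higher in GDF15 and 0.91% in TGF-β, so that the count of none says nothing about these genes. *Tgfbr1* and *Tgfbr2*, the type I and type II receptors of TGF-β, had FPKM of 5.08, 7.04 and 6.56, and of 14.4, 17.2 and 15.7. *Tgfbr3*, which encodes the coreceptor betaglycan, differed most, with 45.7, 39.1 and 30.2. *Tgfb1* was the member highest in TGF-β relative to GDF15, with 28.7, 23.1 and 26.2. *Gfral* had FPKM of 0.142, 0.195 and 0.0895, or 4.96, 7.95 and 2.98 estimated fragments, and the interval of its ratio of TGF-β to GDF15 (0.0784 to 1.91) includes 1. *Ret* had FPKM of 0.015, 0 and 0. A difference of either gene was not detectable at this depth. *Gdf15* itself had FPKM of 0.121, 0.104 and 0.0636.

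**Figure D4:**
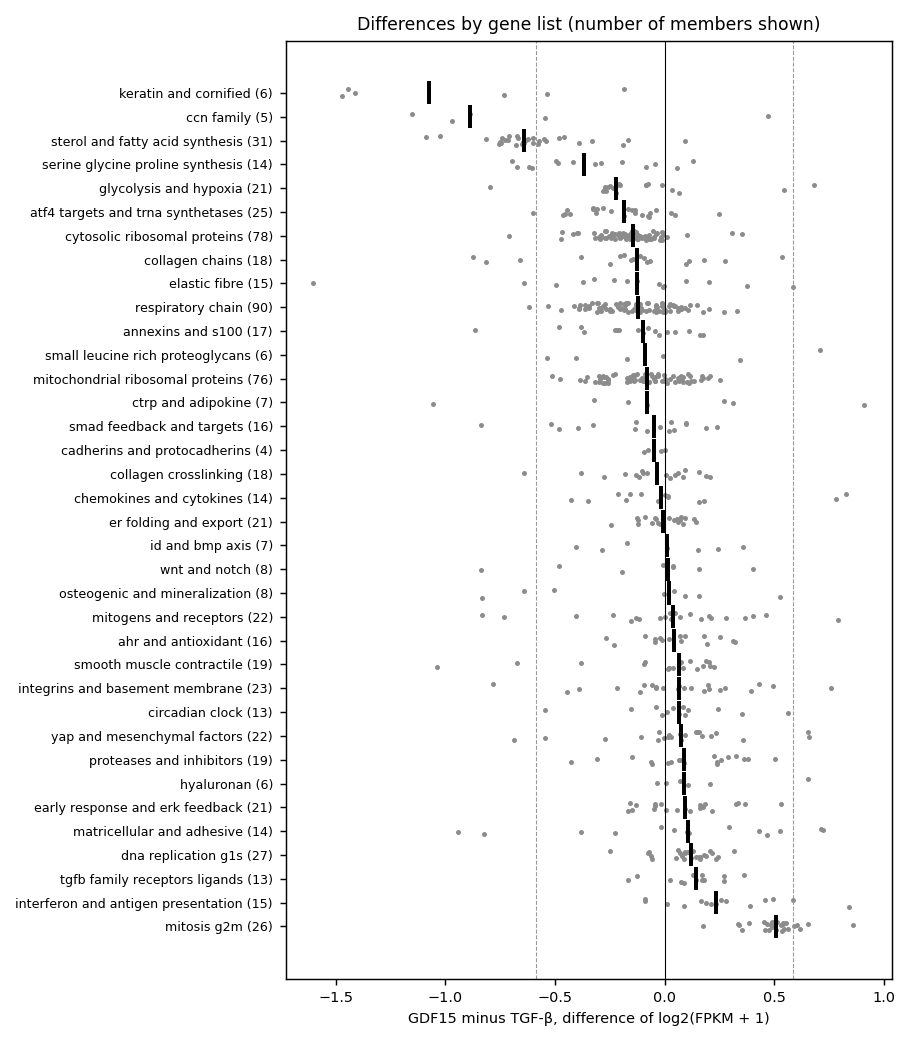
Difference of log2(FPKM + 1), GDF15 minus TGF-β, of the members averaging at least 1 FPKM (grey points) and their median (black bars) in 36 gene lists, with the number of members in parentheses and dashed lines at 1.5-fold. Medians run from -1.07 for keratin and cornified genes and -0.64 for sterol and fatty acid synthesis to 0.51 for mitosis and G2.

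Of 14 genes of serine, glycine and proline synthesis, 12 were higher in TGF-β and 4 over 1.5-fold higher, beside 39.7% and 0.91% of all rows at this expression, and the median was -0.37. *Asns*, asparagine synthetase, had FPKM of 31.5, 45.5 and 74.2, *Aldh1l2* and *Mthfd2*, enzymes of mitochondrial folate metabolism, had 7.25, 13.1 and 21.5, and 7.92, 12.8 and 20. *Pycr1*, which makes proline, had 4.87, 7.32 and 11.8. Of 25 ATF4 targets and tRNA synthetases, which answer amino acid shortage, 22 were higher in TGF-β and 1 was over 1.5-fold higher (4%), to be read against the same shares, and the median was -0.18. That gene was *Trib3*, a pseudokinase gene, with FPKM of 13.9, 19.3 and 29.9. *Atf4* had 156, 173 and 214, and *Ddit3*, which encodes the stress factor CHOP, was higher in GDF15, with 71.8, 56.8 and 47.8. Of 21 genes of folding in the endoplasmic reticulum, 10 were higher in GDF15, where 60.3% of all rows at this expression were, and the median was -0.01. *Hspa5*, the chaperone BiP, had FPKM of 235, 301 and 309.

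Of 21 glycolysis and hypoxia genes, 17 were higher in TGF-β, where 39.7% of all rows at this expression were, and the median was -0.22, with small differences in most. *Ldha*, lactate dehydrogenase, had FPKM of 183, 224 and 271. *Adm*, which encodes the vasodilator peptide adrenomedullin, ran the other way, with 40.1, 39.7 and 24.4. *Eno1*, with 2.46, 1.26 and 2.93, had the largest difference of the list, but these values are low for an abundant glycolytic enzyme with near-identical copies in the genome, so its value is uncertain.

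Interferon and antigen presentation genes were higher in GDF15 in 13 of 15 cases, where 60.3% of all rows at this expression were, with a median of 0.23 and 1 gene over 1.5-fold higher, where 0.629% were. *Ifit3*, an antiviral effector, had FPKM of 7.43, 5.88 and 2.84, and *Ifit2* had 13.3, 13.3 and 8.54. In *Ifit3* and *Ifit2* TGF-β was below CTRL, and GDF15 was level with it or less far below. Among cytokines, *Il33*, an alarmin, had FPKM of 5.27, 3.01 and 1.26, and *Cxcl12*, a chemokine of stromal cells, had 2.72, 2.8 and 1.21. *Cxcl1*, a neutrophil chemokine, was highest in CTRL, with 3.22, 0.86 and 1.5.

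Other genes were found on either side. *Pdgfra*, which encodes the PDGF receptor α, was on the GDF15 side, with FPKM of 61.3, 61.3 and 35. GDF15 was level with CTRL, and the ratio of TGF-β to GDF15 was 0.572 (0.551 to 0.593). *Snai2* and *Twist2*, transcription factors of mesenchymal cells, had FPKM of 43.2, 41.9 and 26.2, and of 24.3, 17.6 and 10.9. *Snai1*, a close relative of *Snai2*, was higher in TGF-β, with 13.1, 17.8 and 21.7. *Angptl4*, an inhibitor of lipoprotein lipase, had 77.8, 52.5 and 27.5. *Igfbp7*, a secreted binding protein, was on the TGF-β side, with 18.9, 27.3 and 49.4, as was *Anxa8*, an annexin gene, with 58.4, 103 and 189. *Prl2c3*, a gene of the proliferin family, was the one row over 1.5-fold higher in TGF-β that both stimuli left over 1.5-fold below CTRL, with 105, 27.5 and 46.4. Its near copy *Prl2c2* had 120, 70.3 and 53, in the other order, and how reads shared by the copies were divided is not given in the sources used here.

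Transcript length moved with the difference. Over 9193 genes, which are not independent replicates, the difference had a Spearman rho of 0.302 with transcript length and of -0.163 with GC content. Transcripts no longer than 800 bases had a median of -0.17, and those longer than 8000 bases had a median of 0.12. The short cytosolic ribosomal protein genes (median length 942 bases) were higher in TGF-β in 74 of 78 cases (39.7% of all rows), with a median of -0.15, which was -0.07 after the trend with length and GC content was removed. Respiratory chain genes had medians of -0.12 and -0.06 in the same order. The sterol list stood at -0.71 and the mitosis list at 0.46 after this removal, so both were at least 0.46 from 0 with and without the trend. Against CTRL, the ribosomal list had medians of -0.42 with GDF15 and -0.26 with TGF-β, and the respiratory chain list had -0.34 and -0.21.

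**Figure D5:**
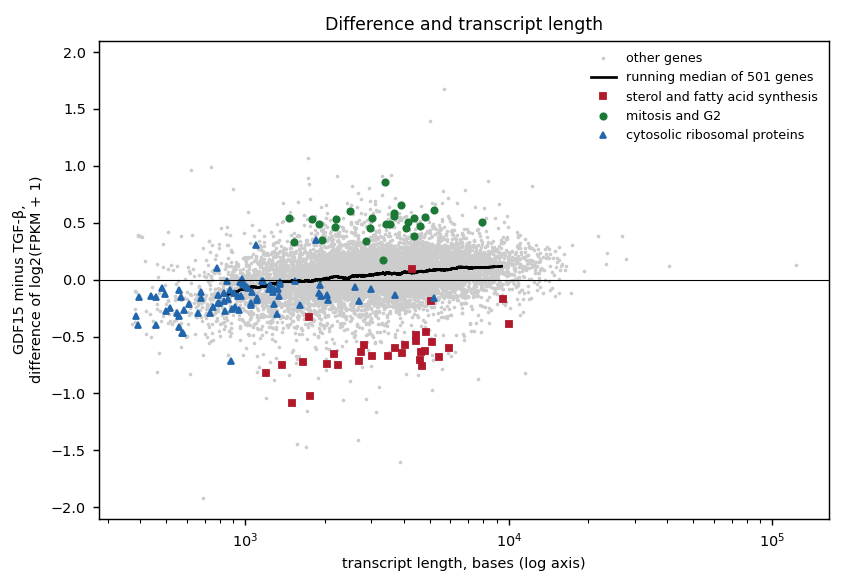
Difference of log2(FPKM + 1), GDF15 minus TGF-β, against transcript length in bases on a log axis, for rows averaging at least 1 FPKM that have a reference length, with their running median as a black line. The line runs from below 0 for short transcripts to above 0 for long ones, ribosomal protein genes (blue triangles) lie near it, and sterol (red squares) and mitosis genes (green circles) lie apart from it at like lengths.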

How the data were processed

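The authors prepared stranded mRNA libraries (TruSeq Stranded mRNA LT) from RNA pooled within each treatment and sequenced them as single-end reads of 50 bases. The submitters' processing notes name TopHat 1.3.2, Bowtie 0.12.9, Cufflinks 2.0.2 and mm10. The deposited values are FPKM calculated by the authors with Cufflinks for protein coding genes reviewed in UniProt, and they were used as deposited. Whether strand entered the counting is not given in the sources used here.

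The members and gene lists were chosen with earlier results of these data known. The difference was log2(FPKM + 1) in GDF15 minus TGF-β, with criteria of 2-fold and 1.5-fold (0.585 on the log2 scale). With 1 library per treatment there was no test. The local spread is the median absolute deviation, multiplied by 1.4826, of the 501 nearest genes by expression, checked on simulated data. Fragments per gene were estimated from FPKM, depth and transcript length less 200 bases, and intervals (95%, exact binomial) and the floor of 3 fragments cover counting error only. Lengths, GC content, coordinates and overlaps are from GENCODE M21 (GRCm38), in which 15473 rows were matched, 748 by an older symbol. Of 15513 symbols, 26 occupied 67 rows.

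Named were all rows over 2-fold apart, the 15 largest in each direction at a mean FPKM of at least 1, list members over 1.5-fold apart or at either end of a list, receptors and ligands, and genes moved in opposite directions. Other genes were chosen after their values were seen, and a few members are counted but not reported by name here. The alternatives were pseudocounts of 0.5 and 0.1, none for genes above 0, a mean FPKM of at least 1, scaling to one upper quartile, and subtraction of the trend with expression, length, or length and GC content. Software was Python 3.11.15, scipy 1.17.1, matplotlib 3.10.9, pandas 2.3.3 and numpy 2.4.6.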

Additional observations from a re-analysis of the deposited data

How the results depend on the processing

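No paired analysis was possible because a single library represents every treatment, and for this reason no replicate could be left out. The counts depended on the pseudocount, which sets how far genes of low FPKM can differ. With a pseudocount of 0.5, 0.1 and none, the rows over 2-fold higher in GDF15 numbered 11, 102 and 243 (3 with a pseudocount of 1), and those higher in TGF-β numbered 21, 125 and 362 (13). Past 1.5-fold there were 113, 440 and 611 higher in GDF15 (62), and 147, 489 and 656 higher in TGF-β (97). Removal of the trend with length, or with length and GC content, gave 5 rows over 2-fold higher in GDF15 in either case, and the cause was not tested. The 3 rows were among those called under all 8 alternatives. Of the 13 rows, 12 were called without a pseudocount, where *Gm20571*, at 0 in GDF15, has no value, and 12 after removal of length or of length and GC content, where *Tnnt2* was at -0.99 and -0.97. Of the 62 rows over 1.5-fold higher in GDF15, 46 were also called after removal of length and GC content, and of the 97 higher in TGF-β, 80 were.

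The medians of the lists moved by less than the local spread in 286 of 288 cases. The exceptions were the keratin and cornified genes, at -1.25 with a pseudocount of 0.1 and -1.275 with none. No named gene over 1.5-fold apart changed direction under an alternative. Depth limits genes with few fragments, such as *Gfral*, *Tnnt2* and *Gm20571*.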

Other observations

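A few genes of the C1 complement proteases were chosen after their values were seen. *C1s*, the protease that cleaves C4 and C2, had FPKM of 21.2, 17.2 and 9.4 in CTRL, GDF15 and TGF-β. *C1ra* and *C1rb*, the copies of the protease that activates it, had FPKM of 19.7, 17.6 and 11.2, and of 10.7, 10.4 and 6.15, and how reads shared by these copies were counted is not given in the sources used here. In all of them GDF15 was nearer to CTRL than TGF-β was.

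*Sned1* had FPKM of 228, 74.7 and 46.9, and *Mterfd2* had 198, 65.7 and 40.4. Both were below CTRL with each stimulus, and their genes overlap on opposite strands in the reference annotation, so that neither value is certain. Other secreted and membrane genes on the GDF15 side were *Dlk1*, which encodes a Notch-like inhibitor of adipocyte differentiation, with 229, 148 and 94.2, *Gas1*, a growth arrest gene, with 115, 101 and 62.2, and *Islr*, with 9.87, 12.8 and 6.32. On the TGF-β side were *Gadd45b*, a stress response gene, with 3.97, 6.08 and 12.1, and *Slc1a5*, a glutamine transporter, with 28.8, 34.2 and 58.8.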
